A study of Mus musculus with 6 samples.

Results

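The mitotic cell cycle genes described here are 43 genes whose products carry a cell from the entry into mitosis to the separation of its daughters, chosen by their symbols from 18448 genes in the deposited count table. All 43 were found, and all 43 passed the filter on low counts that left 14544 genes for testing. They were measured by RNA sequencing of epithelial organoids grown from the jejunum of C57BL/6 mice of the genotype Villin-CreERT2; Hnf4aflox/flox, in which tamoxifen-activated Cre deletes Hnf4a in cells that use the villin promoter. In 3 libraries the organoids had received the vehicle DMSO, and in 3 they had received 0.5 µM 4-hydroxytamoxifen (4OHT) for 24 hours before being split. Both groups carried the floxed alleles and the Cre transgene, both received Wnt3A at 200 ng/mL, and both were collected on day 2. Organoids without Cre that received 4OHT were not analysed here, so the drug and the deletion cannot be told apart. Whether the 3 replicates of a group are separate animals or separate cultures is not in the labels, so p-values refer to spread among libraries that may be only technical. HNF4A is a nuclear receptor that drives enterocyte genes.

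Mitosis is started by the kinase Cdk1 bound to A- and B-type cyclins, and ends when the anaphase-promoting complex, switched on by Cdc20, marks cyclins and securin for destruction. Between these steps the spindle checkpoint holds anaphase back until the kinetochores of all chromosomes have attached to spindle microtubules. Transcription of most of these genes peaks late in the cycle and is repressed in resting cells by the DREAM complex, which binds the cell cycle genes homology region (CHR) in their promoters, often next to boxes bound by the factor NF-Y. In the intestine, dividing cells are the stem and transit-amplifying cells of the crypt, and mature villus cells no longer divide.

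The promoters of these genes were compared for those letters, because the shared elements are what links the members in sequence. RefSeq windows on GRCm38.p6, from 250 bases before to 50 bases after each start, were matched for 36 of the 43 members (not Aurkb, Foxm1, Cdc25c, Incenp, Ccna2, Kif20a and Tpx2). On either strand, the CHR letters TTTGAA stood in the windows of 27 of the 36 members, against 20.2% of the 27025 genes with a window. Within 50 bases of the start they stood in 25 members, against 5.84% of all genes. The NF-Y box CCAAT stood in 26 members, against 41.1%, and in 19 members it stood at 2 or more places, against 13.3%. Both elements stood in 22 members, against 7.97%. In 17 members the centre of an NF-Y box lay 15 to 50 bases before the centre of a CHR, against 1.47%. In 1 member window a CHR overlapped an NF-Y box. The CHR variant TTCGAA was found in 3 members (1.8% of all genes), and the E2F letters TTTCGCGC or TTTGGCGC in 2 members, Cdk1 and Kif15 (0.929%). Birc5, Mad2l1, Melk, Nuf2 and Nusap1 had neither a CHR nor an NF-Y box in this window, as did 47.7% of all genes. For Mad2l1 the GENCODE gene start, base 66535390 of its chromosome, lies past the end of the window. The bases nearest that start were therefore not searched. A match is a description of the letters and not a measured binding site.

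Promoter stretches of 8 members are shown from the bases just before the start, written along the gene's own strand, with capitals marking CHR letters (TTTGAA, or TTCAAA on the other strand) and NF-Y boxes (CCAAT, or ATTGG on the other strand). The stretches of Cdc20 and Cdk1 end 9 and 26 bases short of the RefSeq start, from which positions are counted. Matches closer to the start than the printed stretch, or farther from it, are counted above but not printed. Cdc20 (chr4:118437353-118437493, minus strand) and Kif11 (chr19:37376232-37376381, plus strand) show a single NF-Y box followed by a CHR, and are shown because their p-values with a replicate block were under 0.05 in opposite directions. Cdk1 (chr10:69352939-69353062, minus strand), Top2a (chr11:99024190-99024339, minus strand), Mki67 (chr7:135716380-135716529, minus strand) and Ccnb2 (chr9:70421555-70421704, minus strand) show several elements or, for Ccnb2, NF-Y boxes alone. Birc5 (chr11:117849087-117849236, plus strand) and Mad2l1 (chr6:66535071-66535220, plus strand) show neither.
Cdc20: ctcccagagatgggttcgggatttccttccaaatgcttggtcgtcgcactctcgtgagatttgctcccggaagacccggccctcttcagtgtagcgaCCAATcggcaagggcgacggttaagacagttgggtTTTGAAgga
Kif11: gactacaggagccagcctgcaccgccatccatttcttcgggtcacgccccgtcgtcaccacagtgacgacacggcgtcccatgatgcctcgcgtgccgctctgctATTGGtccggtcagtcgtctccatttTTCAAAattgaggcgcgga
Cdk1: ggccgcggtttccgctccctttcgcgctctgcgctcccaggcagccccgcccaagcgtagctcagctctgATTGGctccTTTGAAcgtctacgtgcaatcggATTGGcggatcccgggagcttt
Top2a: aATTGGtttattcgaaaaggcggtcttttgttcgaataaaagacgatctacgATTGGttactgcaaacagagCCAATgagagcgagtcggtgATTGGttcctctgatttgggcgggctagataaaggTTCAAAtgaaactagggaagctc
Mki67: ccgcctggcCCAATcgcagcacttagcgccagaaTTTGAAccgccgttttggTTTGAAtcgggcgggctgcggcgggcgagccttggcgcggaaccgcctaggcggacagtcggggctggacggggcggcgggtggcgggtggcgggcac
Ccnb2: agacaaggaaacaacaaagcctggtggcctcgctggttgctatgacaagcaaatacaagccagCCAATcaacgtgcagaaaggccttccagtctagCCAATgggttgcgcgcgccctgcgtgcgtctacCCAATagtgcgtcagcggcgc
Birc5: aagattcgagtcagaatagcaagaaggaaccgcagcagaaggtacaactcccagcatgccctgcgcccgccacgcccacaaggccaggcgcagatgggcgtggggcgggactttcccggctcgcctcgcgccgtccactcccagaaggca
Mad2l1: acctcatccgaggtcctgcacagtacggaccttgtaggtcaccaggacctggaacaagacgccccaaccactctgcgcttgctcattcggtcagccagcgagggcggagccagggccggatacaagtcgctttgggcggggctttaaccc

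In Cdc20 the CHR began 18 bases and the printed NF-Y box 53 bases before the RefSeq start, and in Kif11 they began 19 and 45 bases before it. In Cdk1 the printed CHR began 71 bases before the start, between NF-Y boxes at 80 and 48 bases. Top2a held 4 NF-Y boxes in its printed stretch, at 149, 98, 78 and 58 bases, ahead of a CHR at 23 bases, and Ccnb2 held 3, at 87, 54 and 21 bases. Mki67 held its CHRs farther out, at 116 and 98 bases. Over the 39 windows of the 36 matched members (3 genes had 2 windows each), CHR matches were most frequent in the 25 bases just after the start, in 30.8% of windows. NF-Y boxes were most frequent between 75 and 50 bases before the start, in 30.8% of windows, against 7.06% of all windows.

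**Figure D1:**
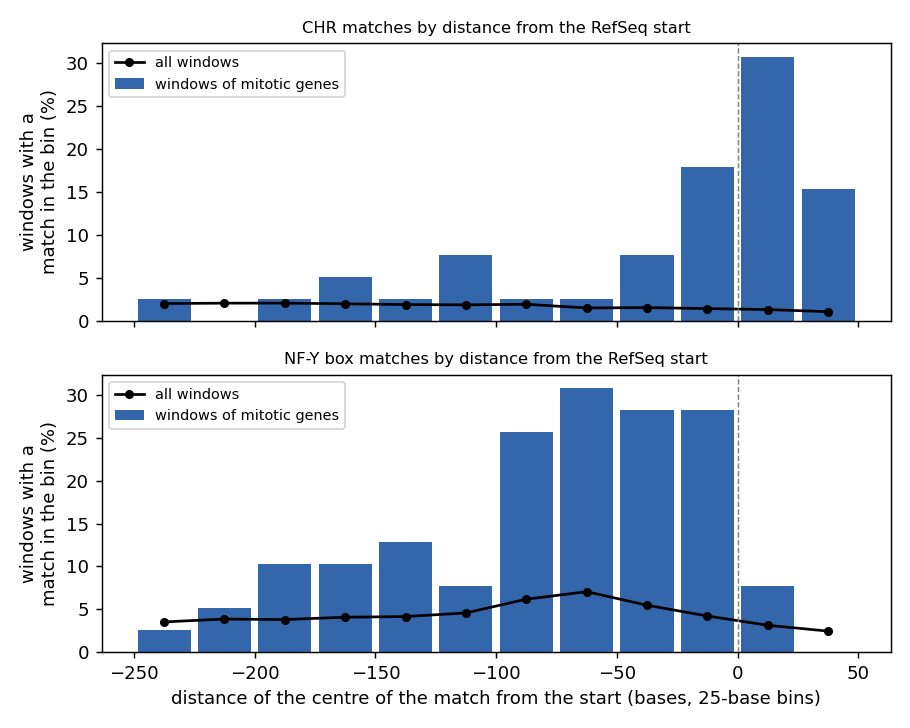
Share of promoter windows (percent, vertical axis) with a CHR (top) or an NF-Y box (bottom) in each 25-base bin, against the distance of the match from the RefSeq start (bases, horizontal axis); bars are the 39 windows of mitotic genes and the line is all 32851 windows. CHR bars gather around the start, up to 30.8%, and NF-Y bars are highest in the 100 bases before it, with lower bars of up to 12.8% farther out.

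Before the members, the labels were checked against the deleted gene and cell markers. Hnf4a was counted at 839.8, 846 and 1021 CPM (counts scaled to a common library size after TMM adjustment) in the DMSO libraries and at 436, 424 and 482 CPM in the 4OHT libraries. Its log2 fold change was -1.01 (adjusted p = 0.0124, edgeR's quasi-likelihood test; 0.00308 with a replicate block), and leaving out any 1 library other than DMSO replicate 3 gave an adjusted p of 0.0572 to 0.0951. Library totals ran from 31537100 to 40276242 counts, of which the members took 0.413% to 0.507%. Epithelial markers were high in every library (Krt8 at 4838 to 7668 CPM). Of 14 markers of fibroblasts, immune cells and endothelium, 6 were in the table, none above the 2.76 CPM of Itgam. The CPM of Krt8 and Itgam given here were scaled by library totals without TMM adjustment. DMSO replicate 3 stood apart from the other DMSO libraries, with a chi-square per degree of freedom (of the counts of 2 libraries over genes) of 50.6 and 55.2 against 6.97 between replicates 1 and 2. The 4OHT libraries gave 13.7, 15.0 and 27.7, the last between replicates 2 and 3, so none stood apart in that way.

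None of the mitotic genes passed the test for a difference between 4OHT and DMSO. The summed level of the members was 4708, 4979 and 4231 CPM in the DMSO libraries and 4554, 5031 and 4427 CPM in the 4OHT libraries. The group means, 4640 ± 379 and 4671 ± 318 CPM (SD, n = 3), differed by less than the spread within either group. In bulk RNA, fewer dividing cells and less RNA per dividing cell cannot be told apart. The test called 0 of 43 members at an adjusted p under 0.05, against 0.908% of all tested genes, so the count is near the background and is not a result about these genes. No member had an unadjusted p under 0.05, against 15.0% of all genes. DESeq2 and limma-voom also called 0 members, against 5.24% and 0.846% of all genes. Adjusted p-values of the members ran from 0.372 to 0.998.

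Log2 fold changes (4OHT over DMSO) ran from -0.14 for Kif15 to 0.21 for Anln, with a median of 0.00 for the members and 0.00 for all tested genes, and 21 of 43 lay below 0 (50.8% of all genes). Leaving out replicate 2 or 3 of DMSO made that last count 11 or 37, and leaving out replicate 2 or 3 of 4OHT made it 35 or 13. Every one of the 43 intervals (95%) lay within a 1.5-fold change in either direction, as did 63.2% of all genes, and 36 lay within a 1.25-fold change, as did 38.6% of all genes. The other 7 were Cdc25c, Cenpf, Nuf2, Kif15, Kif23, Anln and Ect2. The median mean level was 88.0 CPM for the members and 24.8 CPM for all tested genes, and the median interval reached 0.20 to either side of the fold change for members and 0.26 for all genes.

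**Figure D2:**
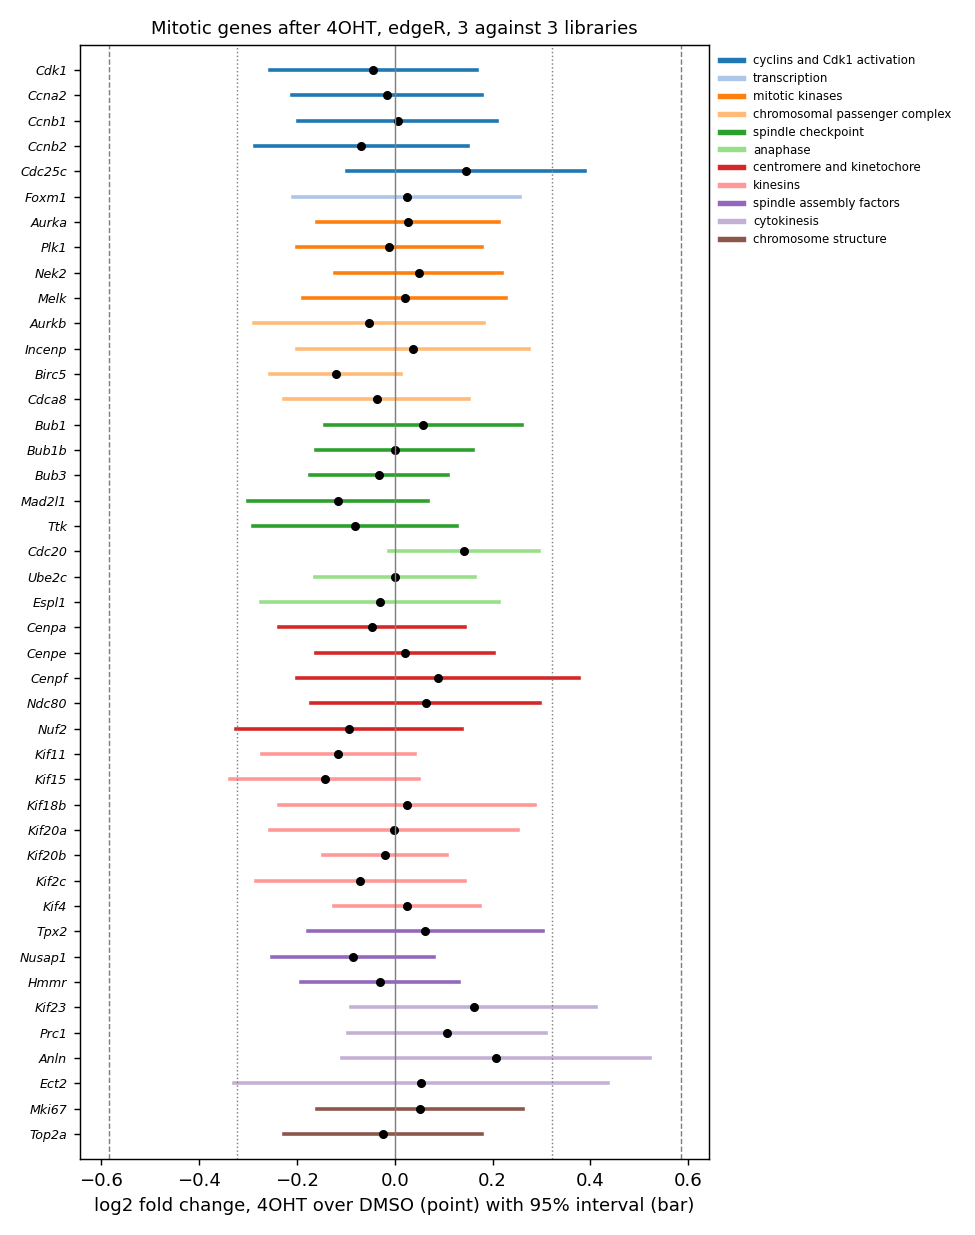
Log2 fold change of 4OHT over DMSO (horizontal axis, point) with its 95% interval (bar) for each of the 43 genes in order of role, from 3 against 3 libraries; dotted lines mark a 1.25-fold and dashed lines a 1.5-fold change. Every bar crosses 0 and stays inside the dashed lines.

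The labels give no pairing of libraries. Libraries of the same number deviated alike from their group means, a pattern seen in these same data. A fit that takes the number as a block was therefore read as well, and its calls rest on that pairing. The fit with the block called 0 of 43 members, against 6.99% of all genes. At an unadjusted p under 0.05 it held 5 members: Cdc20 higher (13.3% of all genes were higher by this rule) and Birc5, Mad2l1, Kif11 and Kif15 lower (12.0% lower), with adjusted p-values of 0.113, 0.193, 0.154, 0.153 and 0.120. Both counts are under the background share of 43 genes. The libraries of the 2 groups did not overlap for 3 members, Cdc20 and Anln higher (12.5% of all genes) and Birc5 lower (10.1%).

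Among the cyclins and the activation of Cdk1, 0 of 5 genes passed and the median log2 fold change was -0.01. Ccna2, the cyclin of S phase and mitotic entry and the highest of the 5 per length, was counted at 208, 232 and 203 CPM with DMSO and at 201, 232 and 204 CPM with 4OHT, with replicate 2 highest in each group and full overlap. Cdc25c, the phosphatase that activates Cdk1 and the gene with the smallest p in the group, was counted at 16.1, 17.2 and 15.3 CPM and at 16.8, 20.2 and 16.7 CPM. Its 4OHT libraries overlapped the DMSO range and its log2 fold change was 0.15 (95% interval -0.10 to 0.39, adjusted p = 0.560). Cdk1, the mitotic kinase itself, stood at -0.04, and its B-type partners Ccnb1 and Ccnb2 at 0.01 and -0.07. Foxm1, a transcription factor that activates late cell cycle genes, was counted at 82.7, 86.9 and 71.4 CPM with DMSO and at 82.8, 88.9 and 73.5 CPM with 4OHT. Libraries of the same number differed by 0.00, 0.03 and 0.04 on the log2 scale, and replicate 3 was the lowest of both groups.

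The 4 genes grouped as mitotic kinases, Aurka, Plk1, Nek2 and Melk, had log2 fold changes of -0.01 to 0.05. Other kinases of the list, such as Cdk1, Aurkb and Ttk, are described with other roles. Plk1, which acts in centrosome maturation, mitotic entry and cytokinesis, was the highest of them per length, at 141, 148 and 132 CPM with DMSO and 139, 152 and 127 CPM with 4OHT. Nek2, a kinase that splits the centrosomes, had the smallest p of the 4, at 91.2, 96.2 and 83.9 CPM with DMSO and 94.9, 98.2 and 87.6 CPM with 4OHT (log2 fold change 0.05, adjusted p = 0.802). In each number its 4OHT library lay slightly above the DMSO one, and the groups overlapped. Aurka, the kinase of the spindle poles, stood at 0.03 and Melk, a kinase high in dividing cells, at 0.02.

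In the chromosomal passenger complex, which corrects wrong attachments of chromosomes and then moves to the midzone, 3 of 4 genes lay below 0. Birc5 (survivin, ENSMUSG00000017716, chr11:117849251-117855743), the subunit that brings the complex to centromeres, was counted at 80.1, 82.7 and 77.0 CPM with DMSO and at 70.1, 75.3 and 75.3 CPM with 4OHT. All 3 of its 4OHT libraries lay under the lowest DMSO library, and its log2 fold change was -0.12 (95% interval -0.25 to 0.01, adjusted p = 0.382). Incenp, the scaffold and the highest of the 4 per length, was counted at 206, 210.5 and 169.9 CPM and at 205, 214 and 183 CPM, with replicate 3 lowest in both groups. Aurkb, the kinase subunit, stood at -0.05 and Cdca8 (borealin), its partner at centromeres, at -0.04.

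Of the 5 spindle checkpoint genes, 3 lay below 0. Mad2l1, whose product binds and inhibits Cdc20, was counted at 76.5, 82.0 and 71.9 CPM with DMSO and at 69.4, 77.0 and 66.5 CPM with 4OHT. The 4OHT library was the lower of each number, by 0.14, 0.09 and 0.11 on the log2 scale, but the groups overlapped, and the fitted value was -0.12 (95% interval -0.30 to 0.07, adjusted p = 0.542). Bub1b (BubR1), an inhibitor of the anaphase-promoting complex and the highest of the 5 per length, was counted at 107, 116 and 104 CPM and at 108, 116 and 103 CPM. Its groups overlapped almost fully, and its adjusted p of 0.998 was the largest of the 43. Bub1, Bub3 and the kinase Ttk, which recruit and start the checkpoint at kinetochores, stood at 0.06, -0.03 and -0.08.

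Cdc20 (ENSMUSG00000006398, chr4:118432901-118437352), the activator of the anaphase-promoting complex, had the smallest p of the 43 members and the highest level per length. It was counted at 164, 167 and 149.7 CPM with DMSO and at 174, 185 and 170.3 CPM with 4OHT. All 3 libraries with 4OHT lay above the highest with DMSO, and each number's difference was positive (0.09, 0.15 and 0.19). The log2 fold change was 0.14 ± 0.06 (SE), with a 95% interval of -0.01 to 0.29 and an adjusted p of 0.372. Ube2c, the ubiquitin-conjugating enzyme that works with that complex, stood at 0.00, and Espl1 (separase), which cuts the cohesin that holds sister chromatids, at -0.03.

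The centromere and kinetochore genes had log2 fold changes of -0.09 to 0.09, 3 of 5 above 0. Cenpa, the histone H3 variant that marks centromeres and the highest of the 5 per length, was counted at 84.1, 85.5 and 77.3 CPM with DMSO and at 73.2, 87.6 and 78.3 CPM with 4OHT. Replicate 1 with 4OHT was the lowest of its 6 libraries, and the groups overlapped. Nuf2, which binds microtubules as part of the Ndc80 complex, had the smallest p of the 5, at 38.8, 42.6 and 34.3 CPM and 35.4, 39.3 and 33.8 CPM (log2 fold change -0.09, adjusted p = 0.710). Its partner Ndc80 stood at 0.06, the kinetochore motor Cenpe at 0.02 and the kinetochore protein Cenpf at 0.09.

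Of the 7 genes grouped as kinesins, motor proteins that move along or take apart microtubules, 5 lay below 0. The motors Kif23 and Cenpe, placed in other role groups, lay above 0, at 0.16 and 0.02. Kif11 (Eg5, ENSMUSG00000012443, chr19:37376403-37421859), which pushes the spindle poles apart and was the highest of the 7 per length, was counted at 186, 203 and 184 CPM with DMSO and at 171, 187 and 172 CPM with 4OHT. Its 4OHT library was lower by 0.13, 0.12 and 0.10 on the log2 scale for numbers 1, 2 and 3, and the groups overlapped, since 4OHT replicate 2 lay above 2 DMSO libraries. Kif15, a second motor of spindle bipolarity, had the lowest log2 fold change of all 43, -0.14 (95% interval -0.34 to 0.05, adjusted p = 0.470), at 57.9, 64.5 and 57.9 CPM and 53.4, 59.6 and 50.3 CPM. Kif2c, which takes microtubules apart at centromeres, stood at -0.07, Kif20b at -0.02 and Kif20a, which acts at the midzone, at 0.00. Kif18b and the chromosome motor Kif4 stood at 0.03 and 0.02.

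The spindle assembly factors were split. Tpx2, which activates Aurka on the spindle and was the highest of the 3 per length, was counted at 107, 116 and 90.0 CPM with DMSO and at 107, 117 and 103 CPM with 4OHT, a difference that lay almost wholly in replicate 3. Nusap1, which binds and bundles spindle microtubules, was counted at 67.7, 71.7 and 64.5 CPM and at 62.8, 68.8 and 60.6 CPM, lower with 4OHT in each number but overlapping (log2 fold change -0.09, adjusted p = 0.624). Hmmr, a spindle pole protein, stood at -0.03.

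All 4 cytokinesis genes lay above 0, with a median log2 fold change of 0.13, and none passed. Anln (anillin, ENSMUSG00000036777, chr9:22332012-22389188), a scaffold of the contractile ring, was counted at 103, 101 and 72.2 CPM with DMSO and at 104, 112 and 104 CPM with 4OHT. Its 4OHT libraries lay above all DMSO libraries, but in number 1 by 0.01 on the log2 scale against 0.52 in number 3, where DMSO was low, and the fitted value of 0.21 had a 95% interval of -0.11 to 0.52 (adjusted p = 0.523). Ect2, the exchange factor that activates RhoA at the cleavage furrow and the highest of the 4 per length, was counted at 164, 187 and 122 CPM and at 159, 186 and 146 CPM. Kif23, a motor of the central spindle, was counted at 157, 159 and 123 CPM and at 156, 174 and 161 CPM, and Prc1, which bundles its microtubules, at 119, 119 and 98.2 CPM and at 121, 125 and 115 CPM. Without DMSO replicate 3 the log2 fold changes were 0.05 for Anln, 0.04 for Kif23, 0.01 for Prc1 and -0.11 for Ect2, so each value moved by over 1.5 times and that of Ect2 turned. All 4 genes were low in DMSO replicate 3, and the median difference of 4OHT from DMSO was 0.01, 0.10 and 0.32 in numbers 1, 2 and 3.

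Mki67, whose product coats mitotic chromosomes, and Top2a, the topoisomerase that untangles sister chromatids, were the most counted of the 43 genes. Mki67 was counted at 368, 397 and 349 CPM with DMSO and at 355, 427 and 372 CPM with 4OHT (log2 fold change 0.05, adjusted p = 0.837). Top2a was counted at 449, 477 and 399 CPM and at 435, 460.2 and 408 CPM (log2 fold change -0.02, adjusted p = 0.927). Each gene's highest library was replicate 2 in both groups, and the groups overlapped.

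**Figure D3:**
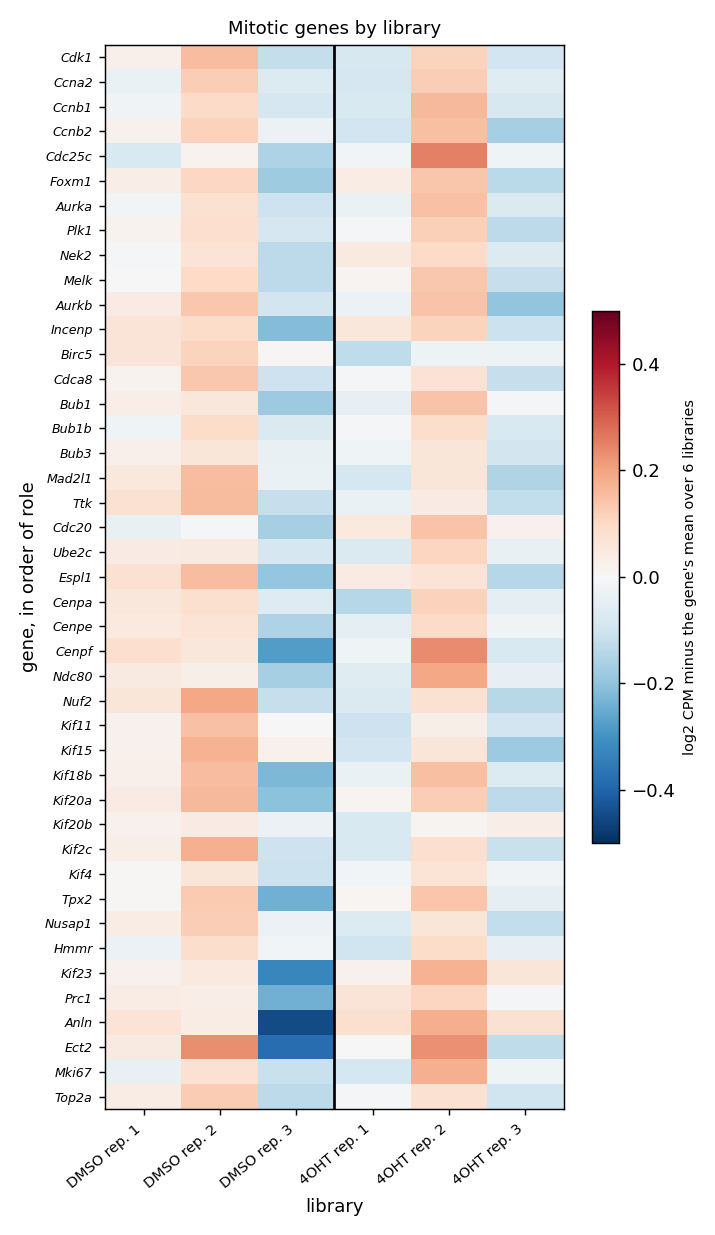
Log2 CPM of each of the 43 genes (rows, in order of role) minus the gene's mean over the 6 libraries (columns), from -0.5 (blue) to 0.5 (red). Replicate 2 is the reddest column of both groups, replicate 3 of DMSO is blue for nearly all genes, and the darkest cell is Anln in DMSO replicate 3.

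The members shared a dependence on the replicate number in both groups. With DMSO, all 43 lay lower in replicate 3 than the mean of replicates 1 and 2 (49.9% of all genes did), with a median difference of -0.18 on the log2 scale. With 4OHT, 41 of 43 did (50.3% of all genes), with a median of -0.12; the exceptions were Birc5 at 0.05 and Kif20b at 0.06. Replicate 2 was the highest library of its group for 39 members with DMSO and for 42 with 4OHT, and for 38 in both groups against 16.9% of all genes. The largest differences of replicate 3 with DMSO were in cytokinesis genes, Ect2 at -0.52, Anln at -0.50 and Kif23 at -0.36, and with 4OHT the same 3 stood at -0.24, -0.06 and -0.04. These are descriptions of single libraries, with no test.

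**Figure D4:**
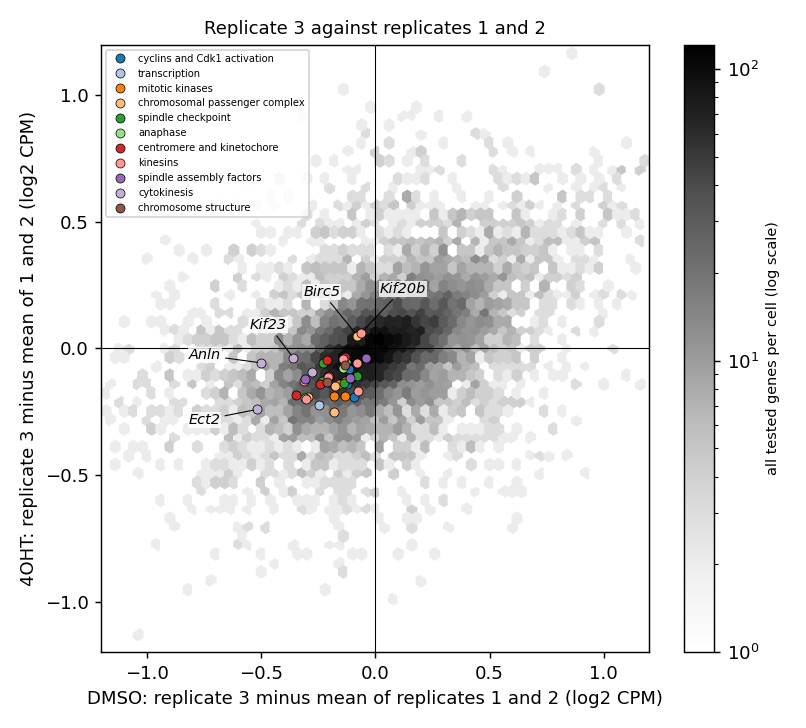
Log2 CPM of replicate 3 minus the mean of replicates 1 and 2, with DMSO (horizontal axis) and with 4OHT (vertical axis); coloured points are the 43 genes by role and grey cells count tested genes, of which those beyond the axes are not drawn. The members lie left of 0, all but Birc5 and Kif20b also lie under 0, and Ect2, Anln and Kif23 are farthest left.

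Some other measures moved with replicate 3. Depth was not shared between the groups, since DMSO replicate 3 had the fewest counts of all 6 libraries and 4OHT replicate 3 the most. The summed level of 10 enterocyte markers was 3654, 3273 and 6803 CPM in DMSO replicates 1, 2 and 3 and 3080, 2278 and 3895 CPM with 4OHT, and 1 of the 10 was lower in replicate 3 in each group. The 6 goblet cell markers summed to 2163, 2147 and 4006 CPM and to 4285, 3378 and 5536 CPM, with 0 of 6 lower in replicate 3, and the 5 stem cell markers to 1396, 1734 and 1604 CPM and to 1412, 1189 and 914 CPM, with 3 and 5 of 5 lower. All of these markers were counted in every library, none at 0. Not all marker lists moved this way: 5 Paneth cell markers had a median difference of 0.01 with DMSO and 0.03 with 4OHT, and 7 general epithelial markers of -0.21 and 0.08. Between groups, the median log2 fold change was -0.53 for the enterocyte, 0.75 for the goblet and -0.34 for the stem cell markers. None of these 3 lists had a gene called without the block, against 0.908% of all tested genes. With the block, 2 of 10, 5 of 6 and 1 of 5 were called, against 6.99% of all tested genes. Of the 5 Paneth cell markers, 1 was called both without and with the block. It was Lyz1, with a log2 fold change of -0.78 (adjusted p = 0.0318 without the block, edgeR's quasi-likelihood test). The part of these markers in the levels of the mitotic genes was not tested.

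The sign of the members' differences varied with the replicate number. Between libraries numbered 1, 4OHT lay below DMSO for 34 of 43 members (50.9% of all genes). Between libraries numbered 2 it did so for 18 (47.8%), and between those numbered 3 for 15 (50.7%). The medians were -0.05, 0.01 and 0.03 on the log2 scale. In all 3 numbers, 9 members were lower with 4OHT (Birc5, Cdca8, Mad2l1, Ttk, Nuf2, Kif11, Kif15, Kif2c and Nusap1), 20.9% of them against 24.5% of all genes, and 8 were higher (Cdc25c, Foxm1, Nek2, Melk, Cdc20, Tpx2, Prc1 and Anln), 18.6% against 25.3%.

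Leaving out replicate 3 of both groups changed the call of 2 members. With the block, Birc5 fell by 0.17 on the log2 scale (adjusted p = 0.0107) and Kif11 fell by 0.13 (adjusted p = 0.0424), 2 of 43 against 8.16% of all genes lower, which is under the background. Without the block, neither passed (adjusted p = 0.184 and 0.393).

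Per kilobase of exon, the members spanned a 26.0-fold range with DMSO. The length used is the union of all annotated exons of a gene. A gene whose main transcript is shorter than that union is given a lower level per length, so the order depends on this choice. Cdc20 was highest at 85.7 ± 4.85 CPM per kilobase (SD, n = 3), followed by Plk1 at 63.9 ± 3.70, Ccna2 at 52.6 ± 3.82, Top2a at 49.0 ± 4.35 and Ube2c at 48.2 ± 2.43. The ranges of mean ± SD of Ccna2, Top2a and Ube2c overlap, but these SDs are between libraries that the genes share. Ccna2 ranked 3 in both groups. Top2a and Ube2c ranked 4 and 5 with DMSO and 5 and 4 with 4OHT, so the order of Top2a and Ube2c is not set by these data. At the low end were Kif15 at 5.45 ± 0.344, Cenpf at 4.95 ± 0.660, Ndc80 at 3.90 ± 0.308 and Cdc25c at 3.29 ± 0.197. The order was nearly the same with 4OHT, where Cdc20 stood at 94.5 ± 4.20 CPM per kilobase: 39 of the 43 genes moved by at most 2 ranks, and the largest move was 4 ranks.

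**Figure D5:**
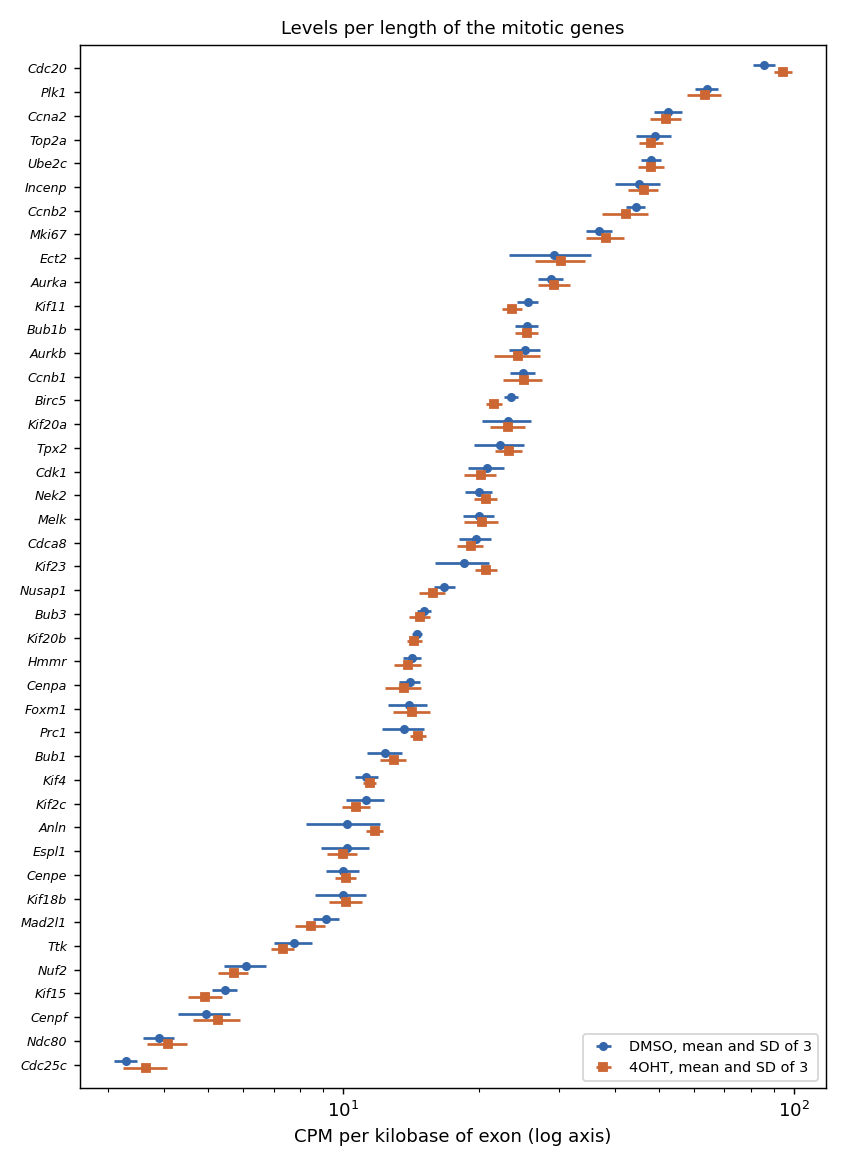
Level per length (CPM per kilobase of exon, log axis) of each gene, as mean and SD of 3 libraries, for DMSO (circles) and 4OHT (squares), in order of the DMSO level. The SD bars of the groups overlap for nearly all genes, from Cdc20 at 85.7 and 94.5 down to Cdc25c at 3.29 and 3.64.

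The same values were set beside the promoter letters. The 27 matched members with a CHR had a median log2 fold change of -0.01 and the 9 without one 0.01. In replicate 3 their medians were -0.14 and -0.16 with DMSO and -0.11 and -0.12 with 4OHT. These are medians without a test.

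Further lists of cell division genes were fitted in the same way. None of 8 condensins, 14 cohesin genes, 17 genes of the anaphase-promoting complex, 30 other kinetochore genes, 22 centrosome and spindle genes, 23 regulators of the DREAM, MuvB and E2F group, 19 G1 cyclins, kinases and inhibitors, or 39 replication genes passed edgeR's quasi-likelihood test. With the block, 5 of these 172 genes were called (2.91%, against 6.99% of all genes), a share under the background. Anapc13 fell by 0.33 and Anapc16 by 0.22 on the log2 scale (adjusted p = 0.0405 and 0.0415), both subunits of the anaphase-promoting complex that Cdc20 activates, and Stmn1, which destabilises microtubules, fell by 0.38 (adjusted p = 0.0170). The cyclins Ccnd2 and Ccnd3, which act with Cdk4 and Cdk6 in G1, rose with the block by 0.47 and 0.32 (adjusted p = 0.0210 and 0.0272; 0.0654 and 0.0791 without it). Ccnd2 was counted at 1082, 1097 and 933 CPM with DMSO and at 1393, 1509.9 and 1406 CPM with 4OHT, with no overlap. The 39 replication genes were all lower in replicate 3 in both groups, by medians of 0.25 and 0.21. Of the members, 43 with DMSO and 41 with 4OHT lay lower, with medians of -0.18 and -0.12.

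In the authors' deposited table, no member had an adjusted p under 0.05 by edgeR or by DESeq, against 3.65% and 1.63% of its genes. The log2 fold changes of the members in the authors' deposited table ran from -0.14 to 0.21, and their smallest adjusted p was 0.73 by edgeR and 1.0 by DESeq.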

How the data were processed

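RNA was sequenced from 6 libraries of jejunal organoids, 3 with DMSO and 3 with 4OHT. Per the labels' protocols, poly(A) RNA went into directional libraries, and STAR 2.4.0f1, bcl2fastq 1.8.4 and GRCm38 are named per the submitters' processing notes. How reads were counted, with which strand setting and annotation, is not given in the sources used here, so reads of overlapping genes could have been assigned either way. The authors deposited raw counts per gene, per the file headers, with at least 10 counts in total per gene. The authors also deposited a normalised score (the count divided by a library factor and rounded, judged from the values; not used here). The authors computed log2 fold changes of 4OHT over DMSO and mean log2 levels, per the file headers. The p-values that the authors deposited came from DESeq and edgeR, per the file headers, with no models stated.

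Counts were fitted in R 4.3.3 with edgeR 4.0.16 (filterByExpr, TMM, quasi-likelihood F test, two-sided, no covariate), with Benjamini-Hochberg adjustment over 14544 genes. Calls were made at an adjusted p under 0.05, and "rose", "fell" or "changed" is kept for called genes. SEs were taken from the F statistic and 95% intervals from its degrees of freedom. Log2 CPM used a prior count of 2. Gene coordinates (GRCm38) and exon lengths (the union of all annotated exons of a gene) came from GENCODE release M21, promoters from RefSeq. Alternatives were DESeq2 1.42.0, limma-voom (limma 3.58.1), other scalings and filters, a replicate block, and libraries left out. The script was tested on simulated data.

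The labels do not say that replicate numbers mark a shared culture. Between libraries of the same number, deviations from group means had correlations of 0.303, 0.332 and 0.427, against -0.372 to 0.0747 between others. A gene's deviations cancel out within a group, so positive values for some pairs push the others down. The pairing by number comes from the data. It was used in the fits with the replicate block and in the differences between libraries of the same number. The fit with no covariate, which gave the intervals, took no pairing. Replicates of a group differed by more than counting noise (chi-square per degree of freedom 6.97 to 55.2). Each member had 470 to 17513 counts per library.

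All members are named. Values of every library are given for the gene with the smallest p and the gene with the highest level per length of each role, and for Kif23 and Prc1, which were added after their values were seen. Of the other lists, the genes named are among the 3 with the smallest p or are those called with the block, apart from Krt8. The members and lists were chosen with earlier results of these data known.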

Additional observations from a re-analysis of the deposited data

How the results depend on the processing

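The count of called members was 0 under DESeq2, limma-voom, size factors in place of TMM, library totals alone and no filter. It was also 0 with a filter at 10 CPM, the replicate block and each left-out library. Of all genes, DESeq2 called 5.24%, the replicate block 6.99%, and limma-voom and the other scalings and filters 0.523% to 0.949%. With 1 library left out the share was 0.0270% to 2.29%. Where shares are this small, a count of 0 of 43 says little about the members. With replicate 3 of both groups left out, each group has 2 libraries. With the block as well, 18.3% of all genes were called, and the count of members became 2. Of 645 member values under the alternatives, these 2 were called. The number of members below 0 was 21, was 20 with the replicate block (median log2 fold change 0.00) and 20 to 24 under other tools, scalings and filters, and ran from 11 without DMSO replicate 2 to 37 without DMSO replicate 3. Leaving out 4OHT replicate 2 gave 35, and leaving out 4OHT replicate 3 gave 13. The median log2 fold change ran from -0.06 to 0.05 with 1 library left out. Of the 645 values, 88 had another sign than with all libraries, none larger than 0.11; 30 members changed sign in at least 1 alternative and 13 in none. With all 6 libraries, the replicate block changed no member's call.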
